A study of Mus musculus with 12 samples.

Results

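The enzymes that remove superoxide and peroxides are described here across treatments of a cardiac cell line, as 10 genes taken by name. The choice was made with earlier results of these data known. They are the superoxide dismutases Sod1 and Sod2, catalase (Cat), the glutathione peroxidases Gpx1 and Gpx4, and the peroxiredoxins Prdx1, Prdx2, Prdx3, Prdx5 and Prdx6. These 10 genes were taken from a table of 54345 genes, and all 10 were among the 25044 genes that passed the filter on low values (FPKM above 0 in at least 3 libraries). Poly(A) RNA was sequenced from H9c2(2-1) cells of WT genotype, an established line labelled as myoblast that the study describes as rat cardiomyoblasts. The cells attached for 12 h and were then untreated (Unt), treated with doxorubicin (DOX), treated with DOX and dexrazoxane (D_DXZ), or treated with DOX and magnesium hexacyanoferrate nanocatalysts (D_MgHCF), each for 6 h and with 3 libraries per group. Doxorubicin is an anthracycline used against cancer that damages the heart, and dexrazoxane is an iron chelator used clinically to limit that damage. All 3 treated groups therefore share DOX, and no group received dexrazoxane or the nanocatalysts alone. The doses in the sequenced cells were not given in the sources used here, and no source states that the libraries were separate cultures, so p-values measure the spread between these libraries, which may be technical.

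Superoxide arises when oxygen takes up a single electron, mainly in mitochondria and at oxidases. Superoxide dismutases convert it to hydrogen peroxide, which catalase splits to water and oxygen, and which glutathione peroxidases and peroxiredoxins reduce with electrons drawn from glutathione and thioredoxin and, in the end, from NADPH. Cardiac muscle is rich in mitochondria, and doxorubicin can cycle between redox states and pass electrons to oxygen.

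The deposited values were FPKM, fragments per kilobase of gene after a library scaling. This unit is meant to set genes and libraries side by side, which holds here only within the limits given below. Between 16626514 and 19365119 reads fell on genes in each library, and between 998 and 26220 reads stood behind each value of the 10 enzymes. FPKM also hold a library scaling. Relative to the reads on genes it was 1.32 to 1.38 for Unt libraries and 1.26 to 1.43 for D_MgHCF libraries, but 0.647 to 0.784 for DOX and 0.747 to 0.892 for D_DXZ. Directions of the 10 enzymes against DOX or D_DXZ are therefore given below with other scalings beside them. Counts over lists of related genes are given at the deposited scaling alone and may change under the others. The reads of a line described as rat were aligned to the mouse genome, and how this touches the level of each gene was not tested. The markers of muscle cells were uneven. Vim and Acta2 made up nearly all of a summed FPKM of 329 to 3173 over 11 markers, and the sum was 494 to 604 in Unt libraries, 2359 to 3173 with DOX, 1923 to 2591 with DOX and dexrazoxane, and 329 to 609 with DOX and the nanocatalysts. Gata4 went another way, at 10.3 mean FPKM for Unt, 3.35 for DOX and 19.2 for D_MgHCF, and Des was at 1.46, 0.55 and 0.86. The defining myoblast genes Myod1, Myf5 and Myog stayed at or near 0. Fibroblast markers (5 genes, mostly Col1a1 and Col3a1) summed to 35.8 to 37.1 FPKM in Unt libraries. The sum was 109 to 135 with DOX, 74.3 to 118 with DOX and dexrazoxane, and 27.7 to 57.2 with DOX and the nanocatalysts. Endothelial, epithelial and immune markers summed to at most 1.08, 1.63 and 4.79 FPKM in any library, the last almost wholly Cd68. The part of these markers in the results was not tested, and more cells of a kind cannot be told apart from more RNA per cell.

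Promoter sequences are shown for 4 of the enzymes to give the letters behind the motif counts that follow. They are the mouse reference sequence of RefSeq (GRCm38.p6), read 5′ to 3′ on the strand of the gene, up to 250 bases before the RefSeq start and ending where the deposited table places the gene. RefSeq promoters matched 9 of the 10 enzymes (12 promoters), with no entry for Prdx6. Prdx1 (chr4:116685349-116685543, plus strand) and Sod1 (chr16:90220512-90220741, plus strand) were the only enzymes with the antioxidant response element core TGACNNNGC, the site class bound by Nrf2, and it is in capitals. For Sod2 (chr17:13007589-13007838, plus strand) the capitals mark the GC box GGGCGG, and for Cat (chr2:103485161-103485403, minus strand) they mark CCAAT on either strand.
Prdx1: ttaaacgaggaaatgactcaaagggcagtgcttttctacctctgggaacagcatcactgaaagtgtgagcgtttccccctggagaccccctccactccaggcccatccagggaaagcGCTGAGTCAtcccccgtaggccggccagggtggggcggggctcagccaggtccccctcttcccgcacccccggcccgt
Sod1: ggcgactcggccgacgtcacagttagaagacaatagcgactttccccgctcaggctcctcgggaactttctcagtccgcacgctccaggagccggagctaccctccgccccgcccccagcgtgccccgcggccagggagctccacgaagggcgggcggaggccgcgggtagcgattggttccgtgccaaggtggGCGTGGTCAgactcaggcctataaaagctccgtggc
Sod2: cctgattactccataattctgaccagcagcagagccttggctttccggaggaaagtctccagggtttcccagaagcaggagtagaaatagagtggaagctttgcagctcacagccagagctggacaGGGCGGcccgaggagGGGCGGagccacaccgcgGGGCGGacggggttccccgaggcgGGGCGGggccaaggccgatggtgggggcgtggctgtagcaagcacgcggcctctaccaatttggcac
Cat: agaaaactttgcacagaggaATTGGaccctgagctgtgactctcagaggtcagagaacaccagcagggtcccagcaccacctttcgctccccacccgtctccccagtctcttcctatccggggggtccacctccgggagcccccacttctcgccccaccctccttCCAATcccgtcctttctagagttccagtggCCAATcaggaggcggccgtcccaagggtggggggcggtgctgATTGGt
All motifs were searched on both strands of the 250 bases, and every share is set beside that of all 32851 RefSeq promoters. The antioxidant response element core occurred in 2 of 12 promoters (10.2% of all promoters), starting 133 bases before the start in Prdx1 and 56 bases before it in Sod1, both on the opposite strand. The AP-1 site TGANTCA occurred in 1 of 12 (6.75% of all), in Prdx1, where 1 of its 2 positions overlaps the antioxidant response element core. The GC box occurred in 9 of 12 promoters (32.7% of all), CCAAT in 6 of 12 (33.8%), TATAAA in 3 of 12 (12.4%) and the NF-kB motif in 4 of 12 (7.25%). Counted by gene, these were 7, 4, 3 and 4 of 9 enzymes. The TATAAA match of Prdx1, 29 bases before the start, lies beyond its printed bases. A match is a description of letters, and the binding of factors was not measured. The sequences are of mouse while the cells are described as rat, and whether the cells hold these motifs was not tested.

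Against untreated cells, all 10 enzymes were higher in DOX, by 2.85 times (Prdx5) to 5.74 times (Prdx1) in mean FPKM. All 10 were also higher in D_DXZ, while in D_MgHCF 6 of 10 were higher and the other 4 did not pass the test at the deposited scaling (7 to 9 of 10 were higher under the other 3 scalings). With limma on log2(FPKM + 1) and Benjamini-Hochberg adjusted p over 25044 genes, the adjusted p of the 10 ran from 1.1e-05 to 9.9e-05 in DOX against Unt. Of all genes tested, 18.6% were called higher in that comparison, and of the 4586 genes with a mean FPKM of at least 10 in Unt, 52.7% were. The median log2 fold change was 1.93 over the 10 enzymes and 0.55 over these 4586 genes. The direction in DOX against Unt stayed higher for all 10 under TPM scaling (0.14 to 1.14) and over the summed reads (0.55 to 1.55), and for 9 of 10 under quantile normalization, with Sod1 at -0.17. The call for Prdx5 was lost under TPM scaling (0.14, adjusted p 0.244) and under quantile normalization (0.041, adjusted p 0.754).

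**Figure D1:**
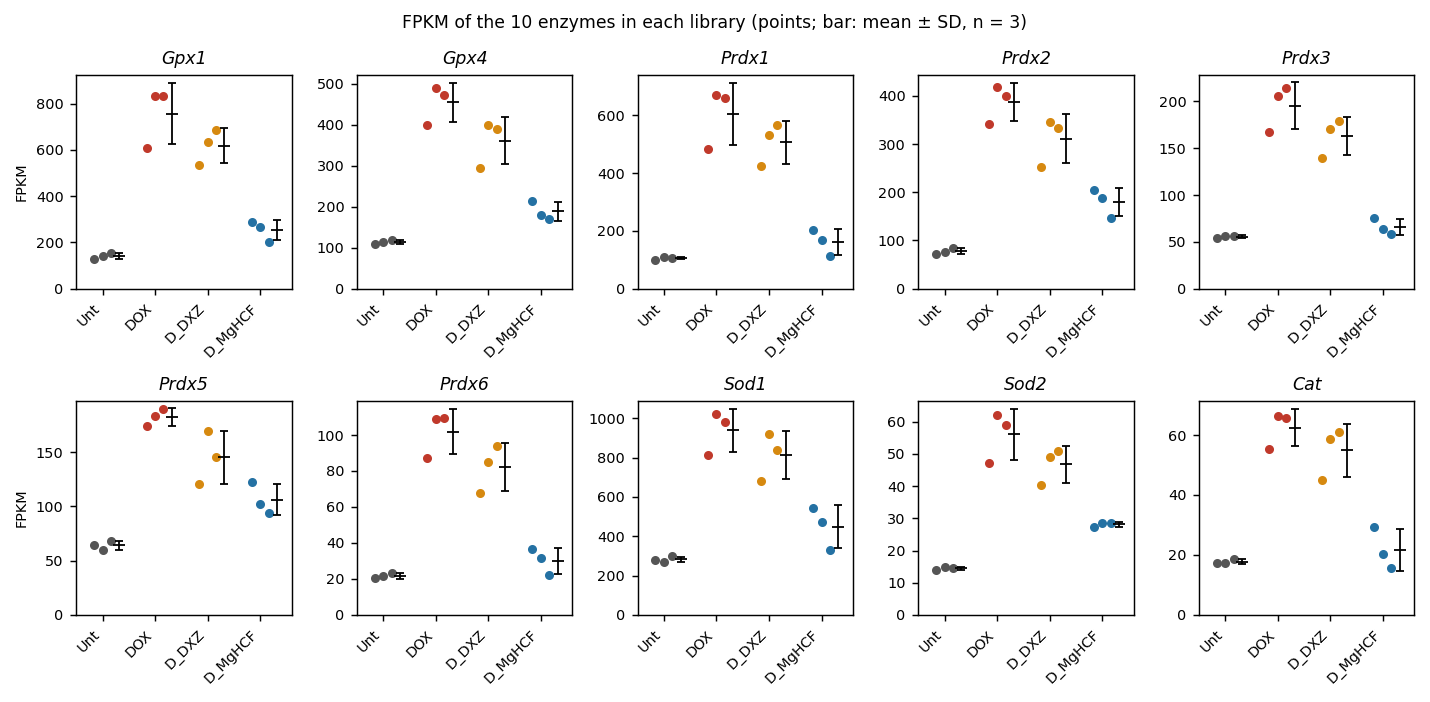
FPKM of each of the 10 enzymes (vertical axis, from 0, a separate scale per gene) in every library of Unt, DOX, D_DXZ and D_MgHCF (points), with bars for the mean and SD of 3 libraries. All DOX and D_DXZ libraries lie above all Unt libraries for each gene, and all D_MgHCF libraries lie below all DOX libraries. For 8 genes all D_MgHCF libraries lie above all Unt libraries, while for Prdx6 replicate 3 lies within the Unt values and for Cat replicate 3 lies below them. The share of all genes without overlap was not counted. Of the 4586 genes with a mean FPKM of at least 10 in Unt, limma called 52.7% higher in DOX against Unt. It called 60% of them lower in D_MgHCF against DOX, so such separation is not particular to these enzymes.

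The superoxide dismutases make hydrogen peroxide from superoxide, Sod1 as the copper and zinc enzyme of the cytosol and Sod2 as the manganese enzyme of the mitochondrial matrix. Sod1 (ENSMUSG00000022982, chr16:90220742-90226322, plus strand) had the highest FPKM of the 10 enzymes in every library. Its FPKM was 279, 271 and 299 in Unt, 815, 1022 and 982 in DOX, 682, 921 and 837 in D_DXZ and 545, 474 and 328 in D_MgHCF. The Unt libraries lay below all others, and D_MgHCF lay between Unt and DOX without overlap with either. The log2 fold change of Sod1 was 1.72 ± 0.214 (SE) in DOX against Unt, 1.51 in D_DXZ against Unt and 0.64 in D_MgHCF against Unt, the last with an adjusted p of 0.0378. That last call was lost with each of 8 libraries left out in turn (replicates 1, 2 and 3 of Unt, 2 and 3 of DOX, 3 of D_DXZ, 1 and 2 of D_MgHCF), at adjusted p of 0.0532 to 0.106. A pseudogene copy, Gm8566 (97.8% identity over 465 bases), was listed at 14.0 FPKM in Unt and 40.8 in DOX and took 2.07% to 3.57% of the reads of both genes.

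Sod2 (ENSMUSG00000006818, chr17:13007839-13018119, plus strand) was the lowest of the 10 enzymes in every Unt, DOX and D_DXZ library. Its FPKM was 13.9, 15.0 and 14.5 in Unt, 47.1, 62.1 and 59.0 in DOX, 40.3, 48.9 and 51.0 in D_DXZ and 27.3, 28.5 and 28.6 in D_MgHCF. The 4 groups did not overlap except for DOX and D_DXZ. The mean of 28.1 ± 0.713 (SD, n = 3) in D_MgHCF was 0.91 log2 units above Unt (adjusted p 0.000249) and 0.96 below DOX (adjusted p 7.2e-05), the latter turning to 0.23 above under TPM scaling. Rps6ka2, a gene that shares 98.3% identity with Sod2 over 3110 bases of annotated transcript, was at 20.1, 13, 12.4 and 15.5 mean FPKM in Unt, DOX, D_DXZ and D_MgHCF, so the reads of Sod2 may be split with it. At least 150 near-identical bases were shared with Sod2 by 9 genes, of which AC166110.4 (98.5% identity over 3108 bases) had no deposited value. The others, among them Tmem245 over 191 bases, held 53.3% to 81.5% of the reads of Sod2 and these genes, counted over their whole length. The level and the rank of Sod2 are therefore uncertain.

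Catalase (Cat, ENSMUSG00000027187, chr2:103453849-103485160, minus strand) is the peroxisomal enzyme that splits hydrogen peroxide without a reductant. Its FPKM was 17.2, 17.2 and 18.7 in Unt, 55.2, 66.3 and 65.8 in DOX, 44.9, 58.6 and 61.1 in D_DXZ and 29.3, 20.3 and 15.6 in D_MgHCF. The D_MgHCF libraries spread across the Unt range, with replicate 3 below every Unt library. The log2 fold change of Cat was 1.76 ± 0.197 (SE) in DOX against Unt and 0.24 in D_MgHCF against Unt, the latter with an adjusted p of 0.367.

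The glutathione peroxidases Gpx1 and Gpx4 are selenium enzymes. Gpx1 acts on soluble peroxides and Gpx4 on peroxides of membrane lipids, which makes Gpx4 the defining guard against ferroptosis. Gpx1 (ENSMUSG00000063856, chr9:108338903-108340343, plus strand) had FPKM of 126, 141 and 153 in Unt, 606, 833 and 833 in DOX, 535, 634 and 685 in D_DXZ and 286, 267 and 203 in D_MgHCF. Gpx4 (ENSMUSG00000075706, chr10:80047166-80056439, plus strand) had 109, 113 and 118 in Unt, 399, 490 and 473 in DOX, 294, 398 and 389 in D_DXZ and 215, 180 and 171 in D_MgHCF. In both genes every D_MgHCF library lay above every Unt library and below every DOX and D_DXZ library. The log2 fold change in DOX against Unt was 2.41 ± 0.188 (SE) for Gpx1 and 1.99 ± 0.151 for Gpx4, and in D_MgHCF against Unt it was 0.83 (adjusted p 0.00653) and 0.72 (adjusted p 0.00413). The pseudogene Gpx4-ps2 (99.7% identity over 762 bases) was listed at 52.7 ± 6.06, 223 ± 29.6, 177 ± 25.9 and 91.7 ± 7.24 FPKM (SD, n = 3) in Unt, DOX, D_DXZ and D_MgHCF. Gpx4-ps2 took 16.2% to 19.1% of the reads of both genes, and another copy, AC122253.3, had no deposited value, so the level of Gpx4 is uncertain.

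Peroxiredoxins reduce peroxides with a reactive cysteine. Prdx1 and Prdx2 are the typical forms of the cytosol, Prdx3 that of mitochondria, Prdx5 an atypical form found in several compartments, and Prdx6 has a single reactive cysteine and also acts on phospholipids. Prdx1 (ENSMUSG00000028691, chr4:116685544-116700822, plus strand) changed the most of the 10 in DOX against Unt at the deposited scaling, while under quantile normalization Sod2 (1.27), Prdx6 (1.24) and Cat (1.04) changed more than Prdx1 (0.83). Its FPKM was 101, 109 and 107 in Unt, 483, 672 and 661 in DOX, 423, 531 and 567 in D_DXZ and 203, 169 and 112 in D_MgHCF, where replicate 3 lay just above the highest Unt library. The log2 fold change was 2.50 ± 0.223 (SE) in DOX against Unt and 0.56 in D_MgHCF against Unt (adjusted p 0.0668), which became 0.81 (adjusted p 0.00473) without replicate 3 of D_MgHCF.

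Prdx2 (ENSMUSG00000005161, chr8:84969587-84974834, plus strand) had FPKM of 71.4, 76.9 and 84.5 in Unt, 342, 418 and 400 in DOX, 253, 346 and 334 in D_DXZ and 204, 189 and 148 in D_MgHCF. It stood highest above Unt of the 10 enzymes in D_MgHCF, at a log2 fold change of 1.20 ± 0.165 (SE, adjusted p 0.0004), after 2.30 in DOX. Junb lies on the opposite strand over 351 bases of the Prdx2 locus and Rnaseh2a over 181 bases, and the library kit does not mark strand, so reads there cannot be told apart. Junb was at 50.4, 7.48, 12.0 and 66.6 mean FPKM in Unt, DOX, D_DXZ and D_MgHCF, the reverse order of Prdx2 in Unt, DOX and D_DXZ, and Rnaseh2a was at 23.1, 39.5, 30.6 and 47.5.

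The mitochondrial Prdx3 (ENSMUSG00000024997, chr19:60864051-60874556, minus strand) had FPKM of 54.2, 56.7 and 55.9 in Unt, 167, 206 and 214 in DOX, 140, 170 and 179 in D_DXZ and 75.3, 63.2 and 58.9 in D_MgHCF. Prdx5 (ENSMUSG00000024953, chr19:6906697-6910106, minus strand) had 64.4, 59.9 and 67.9 in Unt, 174, 184 and 190 in DOX, 120, 169 and 146 in D_DXZ and 122, 102 and 93.9 in D_MgHCF. Both rose in DOX, by 1.79 ± 0.134 (SE) and 1.50 ± 0.137 on the log2 scale, with the Prdx5 call subject to the scaling as given above, while in D_MgHCF against Unt Prdx5 passed (0.71, adjusted p 0.00267) and Prdx3 did not (0.23, adjusted p 0.193), except over the summed reads (0.25, adjusted p 0.0114). Prdx5 overlaps Trmt112 on the opposite strand over 409 bases, and Trmt112 was at 34.3, 55, 47.2 and 15.3 mean FPKM in Unt, DOX, D_DXZ and D_MgHCF. Prdx6 (ENSMUSG00000026701, chr1:161240112-161251219, minus strand) had FPKM of 20.3, 21.6 and 23.5 in Unt, 87.5, 109 and 109 in DOX, 67.8, 85.2 and 93.9 in D_DXZ and 36.5, 31.4 and 21.9 in D_MgHCF. Its log2 fold change was 2.17 ± 0.184 (SE) in DOX and 0.41 in D_MgHCF against Unt (adjusted p 0.0978), the latter becoming 0.62 (adjusted p 0.00727) without replicate 3 of D_MgHCF, the library within the Unt range.

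**Figure D2:**
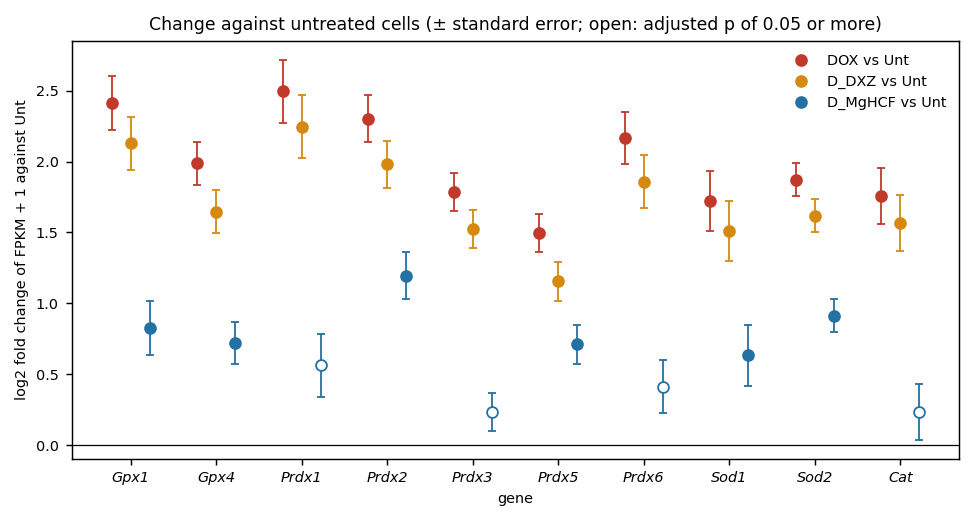
Log2 fold change of FPKM + 1 against Unt (vertical axis) for each enzyme in DOX, D_DXZ and D_MgHCF, with bars for the standard error of the limma fit and open points for an adjusted p of 0.05 or more. All points of DOX and D_DXZ are filled and lie between 1.16 and 2.50, and the open points are Prdx1, Prdx3, Prdx6 and Cat in D_MgHCF.

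Dexrazoxane added to DOX left the 10 enzymes close to their DOX levels in these libraries. In D_DXZ against Unt all 10 were higher (log2 fold changes of 1.16 to 2.25, adjusted p 5.6e-05 to 0.000375), where 15.9% of all genes tested and 47.9% of the 4586 abundant genes were called higher. Under quantile normalization Sod1 (-0.16) and Prdx5 (-0.035) turned lower in this comparison, and Prdx5 (-0.022) did so under TPM scaling. The Gpx4 call was lost under quantile normalization (0.24, adjusted p 0.0708). In D_DXZ against DOX none of the 10 passed limma with adjusted p, and 0% of all genes did. The log2 fold changes ran from -0.34 to -0.19, with standard errors of 0.115 to 0.223 and adjusted p of 0.483 to 0.824, and voom on the recovered reads also called 0 of 10. At an unadjusted p under 0.05, Prdx5 (-0.34, p 0.0316) and Gpx4 (-0.34, p 0.0474) were lower, and 4.97% of all genes were. This comparison does not show that both groups were alike. The libraries of both groups differed among themselves, with replicate 1 the lowest for all 10 enzymes in both groups at the deposited scaling. Replicate 1 also had the highest scaling of its group, at 0.784 in DOX and 0.892 in D_DXZ.

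The nanocatalysts added to DOX went with lower levels of all 10 enzymes than DOX alone at the deposited scaling, by log2 fold changes of -1.93 (Prdx1) to -0.79 (Prdx5), with adjusted p of 1.1e-05 to 0.00173, but this direction held for 9 of 10 over the summed reads, 6 of 10 under TPM scaling and 5 of 10 under quantile normalization. In this comparison 20.1% of all genes tested and 60% of the 4586 abundant genes were called lower, and the median of the abundant genes was -0.81. Prdx1 (-1.93 ± 0.223 SE), Prdx3 (-1.56 ± 0.134), Prdx6 (-1.76 ± 0.184) and Cat (-1.52 ± 0.197) were lower under all 4 scalings. Gpx1 (-1.58 ± 0.188) was lower under 3 scalings and at 0.044 under quantile normalization. Gpx4, Prdx2, Prdx5, Sod1 and Sod2 stood higher than DOX under 1 or more of the other scalings, Prdx5 under all 3 of them (0.43 under TPM scaling, 0.18 over the summed reads, 0.61 under quantile normalization). The scalings also move all genes: the median over genes with FPKM of at least 1 was -0.02 as deposited, 1.02 under TPM scaling, 0.67 over the summed reads and -0.04 under quantile normalization. Relative to that median all 10 were lower in D_MgHCF than in DOX under the first 3 scalings, and 5 of 10 were under quantile normalization.

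**Figure D3:**
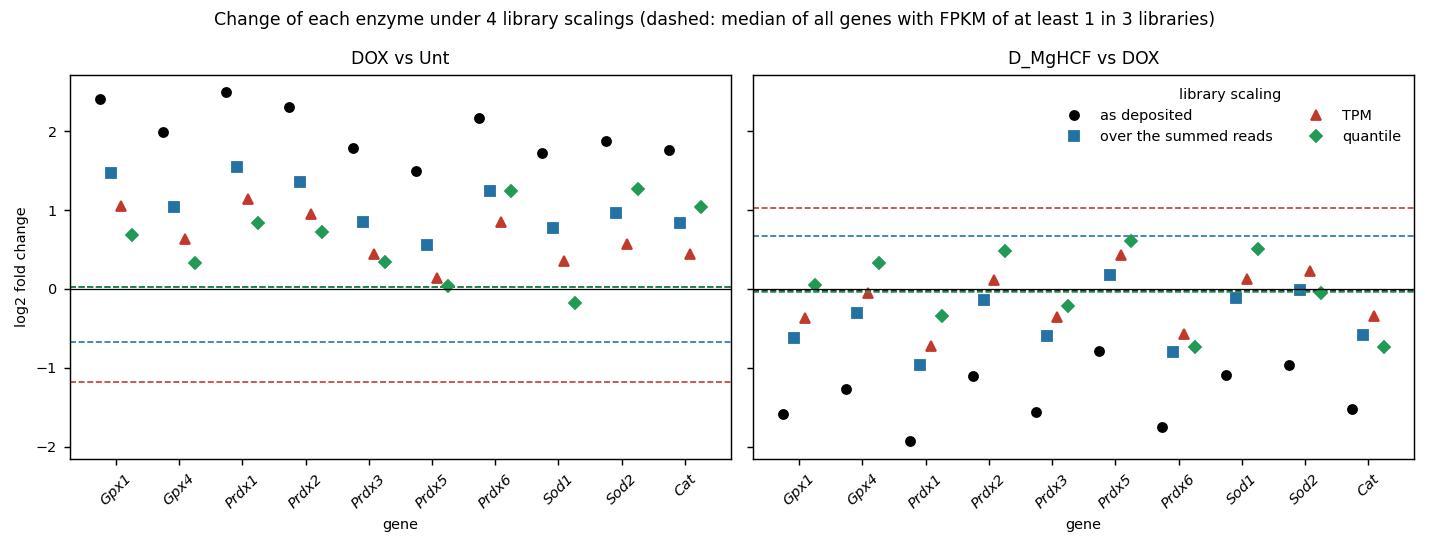
Log2 fold change (vertical axis) of each enzyme in DOX against Unt (left) and D_MgHCF against DOX (right) under 4 library scalings, with dashed lines for the median over genes that reached an FPKM of 1 in 3 libraries. In DOX against Unt every point is above its median line except Sod1 under quantile normalization (-0.17), and in D_MgHCF against DOX the points under TPM scaling lie on both sides of 0 but all below their line at 1.02.

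D_MgHCF against D_DXZ gave the same count, 10 of 10 lower at the deposited scaling (-1.68 for Prdx1 to -0.44 for Prdx5, adjusted p 3.8e-05 to 0.0217), beside 19% of all genes tested and 57.1% of the abundant genes. The count fell to 5 of 10 called lower under TPM scaling (3 higher), 5 over the summed reads (1 higher) and 4 under quantile normalization (4 higher). The call for Prdx5 was lost without replicate 2 or 3 of D_DXZ, or without replicate 2 or 3 of D_MgHCF, at adjusted p of 0.0532 to 0.0860. In D_MgHCF against Unt, where the median over the 12434 genes with FPKM of at least 1 stayed between -0.22 and -0.06 under the 4 scalings, the 6 enzymes called were Gpx1, Gpx4, Prdx2, Prdx5, Sod1 and Sod2, and 24.3% of all genes tested but 16.9% of the abundant genes were called higher. The count was 8 of 10 under TPM scaling, where Prdx1 and Prdx6 passed too, 9 over the summed reads, where Prdx1, Prdx3 and Prdx6 passed too, and 7 under quantile normalization, where Prdx1 did. All 10 log2 fold changes were above 0 in this comparison under the 4 scalings, from 0.23 (Prdx3) to 1.20 (Prdx2) as deposited. The D_MgHCF libraries spread widely at the deposited scaling: replicate 1 was the highest and replicate 3 the lowest of the group for 9 of the 10 enzymes, all but Sod2. The scaling relative to the reads on genes was 1.26, 1.43 and 1.42 in replicates 1, 2 and 3. Reads on Gpx1 were 8657, 9785 and 7168 in these libraries, so the order depends on the scaling.

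The share of the reads on genes that these enzymes take does not use the deposited scaling, but it depends on the reads of all other genes. Reads on the 10 genes were 0.206% to 0.217% of the reads on genes in Unt libraries. In D_MgHCF libraries they were 0.302% to 0.392%, against 0.468% to 0.515% for DOX and 0.432% to 0.472% for D_DXZ. The Unt and D_MgHCF libraries did not overlap with each other or with DOX and D_DXZ. Summed FPKM, which hold the deposited scaling, were 893 ± 43.6 in Unt, 3742 ± 491 in DOX, 3103 ± 434 in D_DXZ and 1483 ± 284 in D_MgHCF (SD, n = 3). Reads on mitochondrial genes moved beside the share of the enzymes, from 1.19% to 1.41% in Unt to 1.76% to 3.27% in the 3 treated groups. Their part in the result was not tested.

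Among the 4586 abundant genes, the enzymes lay in the upper part of the distribution of changes in DOX against Unt. Prdx1 stood at percentile 99.1, Gpx1 at 98.7, Prdx2 at 97.6 and Prdx6 at 96.2. Gpx4 stood at 92.8, Sod2 at 89.7, Prdx3 at 87.1, Cat at 86.3, Sod1 at 85.2 and Prdx5 at 77.5. In D_MgHCF against DOX the order ran from Prdx1 at percentile 10.4 to Prdx5 at 51.1, so Prdx5 was at the middle of all abundant genes there. These positions describe the 10 genes and carry no test.

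**Figure D4:**
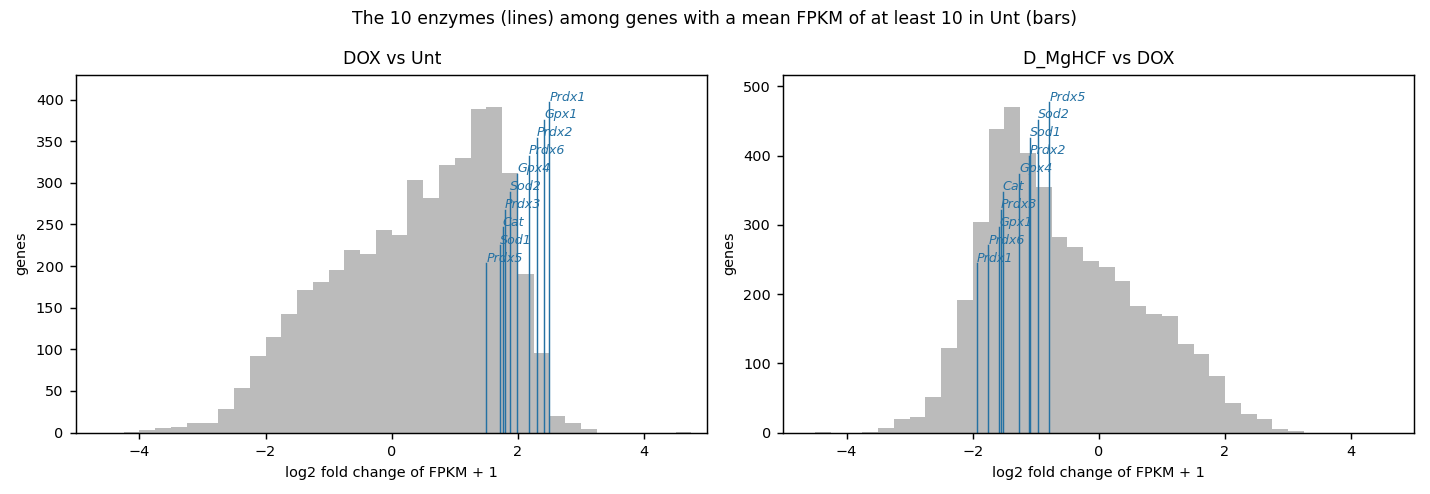
Histogram of the log2 fold change of FPKM + 1 (horizontal axis) over the 4586 genes with a mean FPKM of at least 10 in Unt (bars, number of genes), with a vertical line for each of the 10 enzymes. In DOX against Unt the lines run from percentile 77.5 (Prdx5) to 99.1 (Prdx1), and in D_MgHCF against DOX from 10.4 (Prdx1) to 51.1 (Prdx5), at the deposited scaling.

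Ratios between enzymes within a library are free of a single scaling factor per library, and several of them differed between groups. Prdx1 over Prdx2, the pair of cytosolic forms, was 1.36 ± 0.0877 in Unt, 1.56 ± 0.128 in DOX, 1.63 ± 0.0880 in D_DXZ and 0.880 ± 0.118 in D_MgHCF (SD, n = 3). Every D_MgHCF library lay below every other library. Prdx3 over Prdx5 was 0.870 ± 0.0661 in Unt, 1.07 ± 0.0934 in DOX, 1.13 ± 0.115 in D_DXZ and 0.621 ± 0.00495 in D_MgHCF. Prdx2 over Prdx3 moved the other way, at 1.40 ± 0.102 in Unt, 1.99 ± 0.0991 in DOX, 1.90 ± 0.117 in D_DXZ and 2.74 ± 0.242 in D_MgHCF. In these 3 ratios D_MgHCF did not overlap with any other group, and with 3 libraries against 3 an exact permutation test cannot give a two-sided p below 0.1. The pairs were a selection among all possible ones, and the share of all pairs without overlap was not counted. Each of the 3 ratios holds Prdx2 or Prdx5, whose loci overlap Junb and Rnaseh2a or Trmt112 on the opposite strand. These neighbours also changed between groups, and their part in the ratios was not tested.

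The ratio of Gpx1 to Gpx4 followed another course, at 1.24 ± 0.0746 in Unt, 1.66 ± 0.124 in DOX, 1.72 ± 0.116 in D_DXZ and 1.33 ± 0.146 in D_MgHCF (SD, n = 3). DOX and D_DXZ lay above Unt and D_MgHCF without overlap, and the latter 2 groups overlapped. Cat over Gpx1 was 0.126 ± 0.00827 in Unt and below it without overlap in the treated groups, at 0.0832 ± 0.00679, 0.0885 ± 0.00425 and 0.0850 ± 0.0150 in DOX, D_DXZ and D_MgHCF. Sod2 over Sod1 was 0.0513 in Unt, 0.0595 in DOX, 0.0577 in D_DXZ and 0.0658 in D_MgHCF. Its D_MgHCF libraries ran from 0.0501 to 0.0871 and overlapped with all the others. Sod2 over Cat was 0.820 in Unt, 0.895 in DOX, 0.856 in D_DXZ and 1.39 in D_MgHCF. The D_MgHCF libraries of that ratio ran from 0.934 to 1.84 and overlapped with DOX, which reached 0.937. The levels of Gpx4 and Sod2 are uncertain because of their near-identical copies, so the ratios that hold them are uncertain too.

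**Figure D5:**
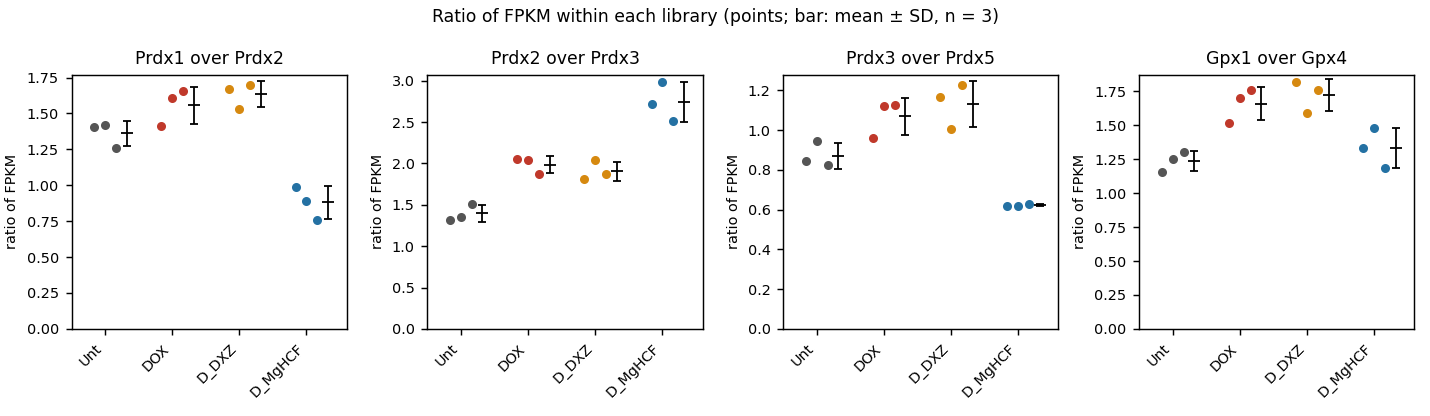
Ratios of FPKM between enzymes within each library (vertical axes, from 0) for Unt, DOX, D_DXZ and D_MgHCF, with points for libraries and bars for the mean and SD of 3 libraries. D_MgHCF lies below all other groups for Prdx1 over Prdx2 and Prdx3 over Prdx5, above them for Prdx2 over Prdx3, and beside Unt for Gpx1 over Gpx4.

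The other peroxiredoxin, glutathione peroxidase and dismutase genes were listed by name too. Of 7 such genes 4 were tested, and at the deposited scaling DOX exceeded Unt for 3 and D_MgHCF was below DOX for 3. Beside this, 18.6% of all genes tested were called higher in DOX against Unt and 20.1% lower in D_MgHCF against DOX. Prdx4, the peroxiredoxin of the endoplasmic reticulum, had FPKM of 50.8, 53.1 and 50.6 in Unt, 179, 243 and 248 in DOX, 149, 225 and 220 in D_DXZ and 110, 82.6 and 48.7 in D_MgHCF. Gpx8, a glutathione peroxidase of the same compartment, had 28.0, 25.7 and 27.3 in Unt, 79.6, 115 and 119 in DOX, 72.6, 83.5 and 94.6 in D_DXZ and 27.0, 24.9 and 14.6 in D_MgHCF. Gpx8 thus lay within or below the Unt range in D_MgHCF, with a log2 fold change of -2.21 ± 0.222 (SE, adjusted p 2.5e-05) against DOX that stayed negative under all 4 scalings (-1.04 to -2.21). The secreted dismutase Sod3 was low, at 2.64 mean FPKM in Unt and 12.2 in DOX (log2 fold change 1.86, adjusted p 1.6e-05), and Gpx3 stayed under 1 FPKM in every library. The genes not tested, Gpx2, Gpx6 and Gpx7, were at or near 0.

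The partners that pass electrons or copper to these enzymes were mixed. Of 15 genes of this list, 9 were higher and 2 lower in DOX against Unt at the deposited scaling (median log2 fold change 0.53). At that scaling D_MgHCF against DOX had 4 higher and 6 lower (median -0.47). Of all genes tested, 18.6% were called higher and 19.9% lower in DOX against Unt, and 31.4% higher and 20.1% lower in D_MgHCF against DOX. Txn1, the thioredoxin that reduces peroxiredoxins, had FPKM of 160, 158 and 158 in Unt, 746, 932 and 925 in DOX, 625, 847 and 796 in D_DXZ and 327, 263 and 157 in D_MgHCF. Its log2 fold change of 2.44 ± 0.248 (SE, adjusted p 3.2e-05) in DOX against Unt was of the size of that of Prdx1. Txnip, the inhibitor of thioredoxin, went the other way, at 15.4, 12.3 and 13.4 FPKM in Unt, 5.04, 3.02 and 1.27 in DOX, 3.55, 2.44 and 1.92 in D_DXZ and 26.3, 20.0 and 22 in D_MgHCF. It fell by 1.94 on the log2 scale in DOX against Unt (adjusted p 0.000431) and was 2.63 higher in D_MgHCF than in DOX (adjusted p 5.6e-05), with the same directions under all 4 scalings.

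Gclc, the catalytic subunit of the enzyme that limits glutathione synthesis, was at 9.19 mean FPKM in DOX and 40.6 in D_MgHCF. Its libraries were at 11.5, 12.6 and 12.5 FPKM in Unt, 11.9, 8.96 and 6.73 in DOX, 9.44, 12.6 and 11.5 in D_DXZ and 43.6, 52.8 and 25.3 in D_MgHCF, so D_MgHCF stood above all other groups. The log2 fold change of Gclc was 2.00 ± 0.253 (SE, adjusted p 0.000101) in D_MgHCF against DOX and 1.59 against Unt (adjusted p 0.000914), and both were above 0 under all 4 scalings. Srxn1, sulfiredoxin, which restores overoxidised peroxiredoxins, and Gsr, glutathione reductase, were singled out after their values were seen. Srxn1 had 8.92, 10.8 and 10.5 FPKM in Unt, 16.4, 14.7 and 12.9 in DOX, 9.18, 11.5 and 11.5 in D_DXZ and 32.2, 51.7 and 43.3 in D_MgHCF, a log2 fold change of 1.95 ± 0.167 (SE, adjusted p 3.5e-05) in D_MgHCF against Unt. Gsr was near 20 FPKM in the other groups and at 8.07, 7.13 and 6.92 in D_MgHCF, a log2 fold change of -1.28 ± 0.112 (SE, adjusted p 3.9e-05) against Unt. For both genes the direction in D_MgHCF against Unt was the same under all 4 scalings.

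NADPH pays for the reduction of glutathione and thioredoxin. Of 4 genes that supply it, 3 were higher in DOX than in Unt (median log2 fold change 2.10) and all 4 stood below DOX in D_MgHCF at the deposited scaling (median -1.17). Nnt, 1 of the 4, was near 0, at 0.0962 mean FPKM in Unt, 0.197 in DOX and 0.0174 in D_MgHCF. In these comparisons 18.6% of all genes tested were called higher and 20.1% lower, respectively. Among the 4586 abundant genes, to which Nnt does not belong, the shares were 52.7% and 60%. Idh1, the cytosolic isocitrate dehydrogenase, went from 12.2 mean FPKM in Unt to 68.0 in DOX (log2 fold change 2.39, adjusted p 0.000148), and Pgd of the pentose phosphate pathway from 15.5 to 78.6 (2.27, adjusted p 1.1e-05). G6pdx, the first enzyme of that pathway, was at 137 mean FPKM in DOX and 44.9 in D_MgHCF, a log2 fold change of -1.60 (adjusted p 1.4e-05) that was -0.40 under TPM scaling and -0.42 under quantile normalization.

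Gpx1 and Gpx4 need selenocysteine, which a dedicated machinery inserts at a stop codon. Of its 5 genes, none was higher and 3 were lower in DOX than in Unt (median log2 fold change -0.78), while the selenium enzymes Gpx1 and Gpx4 were both higher. In that comparison 18.6% of all genes tested were called higher and 19.9% lower. Sephs2, which makes the selenium donor, had FPKM of 16.3, 16.5 and 17 in Unt, 5.75, 4.62 and 4.01 in DOX, 7.65, 4.52 and 4.68 in D_DXZ and 10.6, 18.1 and 17.4 in D_MgHCF. It fell by 1.61 on the log2 scale in DOX (adjusted p 0.000185) and was 1.47 higher in D_MgHCF than in DOX (adjusted p 0.000298), with both directions kept under all 4 scalings. Sepsecs, which completes selenocysteine on its tRNA, went from 3.48 to 0.836 mean FPKM in DOX (log2 fold change -1.29, adjusted p 0.000403). In D_MgHCF against DOX 1 gene of the list was higher and 3 were lower at the deposited scaling. Among the latter, Eefsec, the selenocysteine elongation factor, was at -1.12 (adjusted p 0.000401) and at -0.04 under TPM scaling. There 31.4% of all genes tested were called higher and 20.1% lower.

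The listed oxidase genes, which serve the production of superoxide and peroxide, were low throughout. Mitochondrial sources of superoxide were not in this list. Of 7 oxidase genes 6 were tested. At the deposited scaling 1 passed as higher in DOX than in Unt, and against DOX the D_MgHCF libraries had 2 higher and 1 lower. The shares of all genes tested were 18.6% higher in DOX against Unt, and 31.4% higher and 20.1% lower in D_MgHCF against DOX. Cyba, a membrane subunit of NADPH oxidases, went from 0.468 to 2.50 mean FPKM in DOX (log2 fold change 1.26, adjusted p 0.000708) and to 1.17 in D_MgHCF (-0.69 against DOX, adjusted p 0.0203, and 0.10 under TPM scaling). Duox1, an oxidase that releases hydrogen peroxide, went from 0.140 in DOX to 1.12 in D_MgHCF (0.85, adjusted p 0.00202, at the deposited scaling).

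The genes with the course most like that of the enzymes were sought by the root mean square difference of centred log2(FPKM + 1) over the 12 libraries, among 10791 protein-coding genes. Nearest to Prdx1 were Txn1 at 0.0778 and Pomp at 0.0819, the latter a proteasome assembly factor. Nearest to Gpx1 were Cryab at 0.0903, a small heat shock protein, and Ybx1 at 0.107. Nearest to Prdx2 were Higd2a at 0.0753 and Nqo1 at 0.0936, a quinone reductase. These values describe likeness of level over libraries that share the same scaling.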

How the data were processed

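Poly(A) RNA of 12 libraries was sequenced as paired-end reads of 150 bp. Per the submitters' processing notes, reads were aligned with HISAT2 2.0.5 to GRCm38 (mm10). The counter, the annotation release and the library scaling were not given in the sources used here. The authors deposited FPKM for 54345 genes with mouse Ensembl identifiers. Within a library, FPKM times gene length rose in equal steps, 1 step per read, and 100% of the values came out as whole reads (tolerance 0.01 read), and the scaling contained in FPKM equalled a median-ratio scaling of these reads.

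Differences were tested with limma 3.58.1 (trend) in R 4.3.3 on log2(FPKM + 1), which makes fold changes of low genes smaller, in 1 fit of 4 groups over the 25044 genes listed above 0 FPKM in 3 or more libraries. Genes were called at a Benjamini-Hochberg adjusted p under 0.05 in 6 comparisons. The fit was also run on simulated data with known changes, where libraries were scaled by their total reads. That run does not bear on the choice of library scaling. TPM scaling, FPKM over the summed reads and quantile normalization served as other scalings, and percentiles used genes with a mean FPKM of at least 10 in Unt. Near-identical copies were sought among GENCODE transcripts with BLAST 2.17.0 (at least 95% identity over at least 150 bases). Genes of 5 related lists were counted in full and named if they had the 2 largest changes that passed in DOX against Unt or D_MgHCF against DOX, and the nearest genes by level were named for the 3 enzymes with the largest change in DOX against Unt. Where Nnt is listed under 2 entries, the more abundant was used. The enzymes and the lists were chosen with earlier results of these data known.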

Additional observations from a re-analysis of the deposited data

How the results depend on the processing

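The counts of enzymes called in DOX against Unt and D_DXZ against Unt were 10 of 10 higher with each library left out (10 to 10). With a library left out, 5 to 8 were higher in D_MgHCF against Unt, 10 to 10 lower in D_MgHCF against DOX, 9 to 10 lower in D_MgHCF against D_DXZ, and 0 in either direction in D_DXZ against DOX. At an unadjusted p, 2 were lower in D_DXZ against DOX. For D_MgHCF against DOX, 5 were lower and 1 higher under TPM scaling, 6 lower over the summed reads, and 4 lower and 4 higher under quantile normalization. For D_MgHCF against D_DXZ, 5 were lower and 3 higher under TPM scaling, 5 lower and 1 higher over the summed reads, and 4 lower and 4 higher under quantile normalization. The cause was not tested, beyond the scalings moving the median over genes with FPKM of at least 1 as given above.

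Log2 fold changes that changed sign under quantile normalization were Sod1 at -0.17 in DOX against Unt, Prdx5 at -0.035 and Sod1 at -0.16 in D_DXZ against Unt, Prdx1 at 0.019, Prdx3 at 0.015, Sod1 at 0.011 and Cat at 0.019 in D_DXZ against DOX, Gpx1 at 0.044, Gpx4 at 0.32, Prdx2 at 0.48, Prdx5 at 0.61 and Sod1 at 0.51 in D_MgHCF against DOX, and Gpx1 at 0.087, Gpx4 at 0.41, Prdx2 at 0.54, Prdx5 at 0.68 and Sod1 at 0.50 in D_MgHCF against D_DXZ. Under TPM scaling they were Prdx5 at -0.022 in D_DXZ against Unt, Prdx2 at 0.11, Prdx5 at 0.43, Sod1 at 0.13 and Sod2 at 0.23 in D_MgHCF against DOX, and Gpx4 at 0.11, Prdx2 at 0.25, Prdx5 at 0.59, Sod1 at 0.16 and Sod2 at 0.31 in D_MgHCF against D_DXZ. Over the summed reads they were Prdx5 at 0.18 in D_MgHCF against DOX, and Prdx5 at 0.33 and Sod2 at 0.056 in D_MgHCF against D_DXZ.

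Libraries with the same replicate number had correlated deviations in some pairs of groups (r of 0.390 and 0.305 for replicates 1 and 3 of DOX and D_DXZ) but not in all (down to -0.390), so the numbers were not taken as pairs. With the replicate block, 5 of the 10 enzymes were higher in D_MgHCF against Unt, the lost call being Sod1 (0.64, adjusted p 0.0628), and no other enzyme's call changed. A pseudocount of 0.1 and a filter at FPKM of at least 1 changed no call of the 10 enzymes except Prdx1 in D_MgHCF against Unt, which passed with that filter (0.56, adjusted p 0.0402). Without a filter Sod1 was lost there (adjusted p 0.062). In fits of only the groups compared, Sod1 was lost in D_MgHCF against Unt (adjusted p 0.132) and D_DXZ (0.072), and Prdx5 in D_MgHCF against D_DXZ (0.114). An alternative chosen after seeing the data, voom on the reads recovered from FPKM, added Prdx1 in D_MgHCF against Unt (0.57, adjusted p 0.0369). Planned count models on these reads were not run. At least 998 reads stood behind each enzyme value.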
